A study of Mus musculus with 5 samples.

Results

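The retinoid genes described here are 9 of 18194 genes named on the array: the retinoic acid receptors Rara, Rarb and Rarg, the retinoid responders Rarres1 and Rarres2, the retinoic acid hydroxylase Cyp26b1, and the enzymes Aldh1a1, Aldh1a2 and Rdh10, which make retinoic acid. They were chosen by their differences between the genotypes in these same arrays together with their place in the pathway, so their differences are given as a description and support nothing further. Every probe set that the platform annotation assigns to one of them alone was read, which gave 13 of 45037 probe sets. All 9 genes were measured, 6 of them by 1 probe set.

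P467L animals carried a dominant negative human PPARγ with the P467L mutation, driven by the promoter of smooth muscle myosin heavy chain (SMMHC), so the transgene was directed to smooth muscle while the RNA came from the whole thoracic aorta. Their non-transgenic littermates were the controls. All animals were male C57BL/6 mice of an age not given in the sources used here. There were 3 P467L arrays and 2 non-transgenic arrays of the Affymetrix Mouse Genome 430 2.0 type, each loaded with RNA pooled from 6 to 8 aortas, and the pools are described as independent. Each value below is an RMA level on the log2 scale, where 1 unit is a factor of 2 and levels of different probe sets cannot be set against each other.

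Retinol taken up from the blood is oxidised to retinal by retinol dehydrogenases such as Rdh10, and retinal is oxidised irreversibly to retinoic acid by the Aldh1a enzymes. Retinoic acid binds the receptors RARα, RARβ and RARγ, which sit on DNA as heterodimers with the RXR receptors, and the CYP26 enzymes remove it by hydroxylation. PPARγ uses the same RXR partners. In the vessel wall retinoids are known to act on smooth muscle growth and differentiation.

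Smooth muscle markers were high in every array: the log2 of their summed signal over 7 of 7 genes was 16.6 in all 3 P467L arrays and 16.6 in both non-transgenic arrays. That sum is carried by the brightest markers, and 2 of the 7, Des and Smtn, were higher in P467L without overlap, by 0.805 and 0.16. Over all named genes 16.1% were higher without overlap. P467L replicate 1 stood apart, with correlations of 0.985 to 0.991 with the other arrays, which reached 0.995 to 0.997 among themselves. Non-transgenic replicate 2 stood apart in stomach markers, whose summed log2 signal over 13 genes was 12.2 to 12.6 in the P467L arrays, 11.8 in non-transgenic replicate 1 and 15.2 in non-transgenic replicate 2.

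P467L aortas had higher levels of Rarb and Rarres1 and lower levels of Rarres2 and Cyp26b1 than non-transgenic aortas, in all 3 P467L arrays against both non-transgenic arrays. The differences lay between 1.5-fold and 1.99-fold in the brightest probe set of each gene. Rara, Rarg, Aldh1a1, Aldh1a2 and Rdh10 had overlapping or touching group ranges. No probe set passed an adjusted p of 0.05 in limma's moderated test with Benjamini-Hochberg adjustment: 0 of 13 here, against 0% of all 45037. At an unadjusted p under 0.05, 2 of the 13 were higher and 3 lower, where 4.71% of all probe sets were higher and 2.74% lower. The group ranges did not overlap in 2 probe sets with P467L higher, where 11.2% of all probe sets did this, and in 4 with P467L lower, where the share was 7.61%. Since the genes were picked on this contrast, nothing is read from these counts. Over the 13 probe sets the median difference was 0.03, and over all probe sets it was 0.00.

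**Figure D1:**
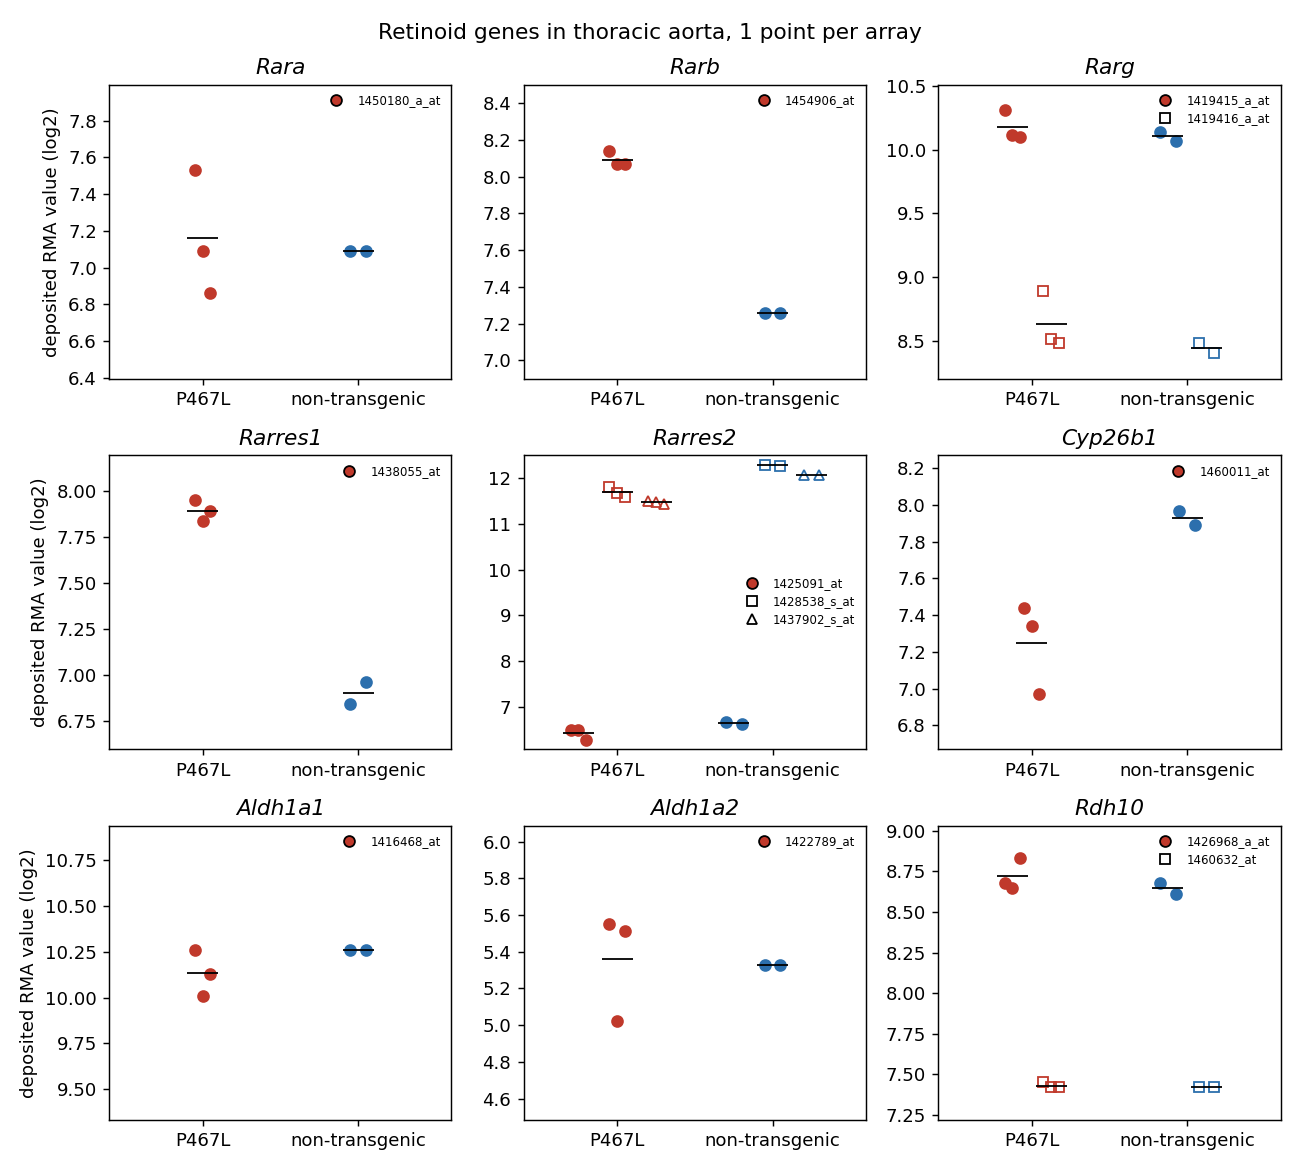
Deposited RMA values (log2) of the 9 retinoid genes, 1 point per array, with P467L arrays in red on the left and non-transgenic arrays in blue on the right of each panel. Marker shapes stand for different probe sets, bars for group means, and axes differ between panels. Rarb and Rarres1 lie higher, and Rarres2 and Cyp26b1 lower, in all 3 P467L arrays.

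Rarb, which encodes RARβ, is the receptor gene best known for being switched on by retinoic acid itself. Its only probe set measured 8.14, 8.07 and 8.07 in P467L replicates 1 to 3, against 7.26 and 7.26 in the non-transgenic arrays. The P467L arrays lay within 0.07 of each other and at least 0.81 above both non-transgenic arrays. Means were 8.09 ± 0.04 over the P467L arrays and 7.26 ± 0.00 over the non-transgenic arrays (SD, n = 3 and 2), which differed by 0.83 (SE 0.04, 95% interval 0.72 to 0.94), or 1.78-fold. limma's adjusted p was 0.0953, a value that Rarb shares with other probe sets, and it ranked 8 of 45037 by unadjusted p. Leaving out each array in turn gave 0.81 to 0.845.

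The non-transgenic SD of 0.00 needs a remark on resolution. The 2 non-transgenic arrays were equal to 2 decimals in 5 of the 13 probe sets, those of Rara, Rarb, Aldh1a1 and Aldh1a2 and the dimmer one of Rdh10. Over all probe sets they were equal in 8635, or 19.2%, and other pairs of arrays in 9.95% to 19.1%. RMA summarises probes by median polish, which can return the same value for several arrays, so the spread within a group of 2 can be understated. limma lends each probe set some of the spread of all the others, and the SEs above include that. What it lends is limited, so the SE, interval and rank of Rarb can still rest on an understated spread.

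The annotated start of Rarb has a window of sequence in RefSeq's GRCm38.p6 annotation, and it holds the element through which retinoic acid is known to induce the gene. It is shown because Rarb is the receptor with the largest measured difference. The 77 bases at chr14:16575483-16575559, minus strand, written 5′ to 3′ with the repeated half-sites in capitals, are as follows.
Rarb: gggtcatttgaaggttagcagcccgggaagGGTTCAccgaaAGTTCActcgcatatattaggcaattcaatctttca

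This is a direct repeat with 5 bases between its half-sites, the spacing that RAR and RXR heterodimers are known to bind, and it runs from -53 to -37 relative to the annotated start. Windows from 250 bases before to 50 after the start were searched on both strands for 2 half-sites in direct repeat, each AGGTCA or GGTTCA or AGTTCA. With 5 bases between, such a repeat was in 20 of 32851 windows, or 0.0609%. With 2 bases between, another spacing that RAR and RXR bind, it was in 0.21% of windows, and with 1 base between, the PPAR spacing, in 0.1%. Of the 9 genes, 7 had 12 windows (Rarres2 and Rdh10 had none), and only the Rarb window held a repeat of any of these spacings. The letters searched include GGTTCA and AGTTCA, which make up the Rarb element, so its match was fixed by the choice of letters. Other letters, such as the gggtca that opens the printed bases, and sequence outside the windows were not searched. The percentages hold for these letters only, and nothing is read from Rarb being the only match or from the windows without one. A match in these letters is not a measurement of binding, and which start site's transcripts the Rarb probe set reads was not tested.

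The other retinoic acid receptors did not separate the groups. Rara, which encodes RARα, measured 7.53, 7.09 and 6.86 in P467L replicates 1 to 3, against 7.09 and 7.09 in the non-transgenic arrays. The P467L arrays thus lay on both sides of the non-transgenic value, and their SD of 0.34 exceeded the difference of 0.07 (95% interval -0.52 to 0.66). Without P467L replicate 1 the difference was -0.115, so its sign rests on that array. Rarg, which encodes RARγ, measured 10.31, 10.12 and 10.10 in P467L and 10.14 and 10.07 in non-transgenic arrays by its brighter probe set, a difference of 0.07 (95% interval -0.15 to 0.29). Its dimmer probe set measured 8.89, 8.51 and 8.48 in P467L and 8.48 and 8.40 in non-transgenic arrays, a difference of 0.19 (95% interval -0.22 to 0.59). All 3 of these probe sets were highest in P467L replicate 1, and without it the brighter Rarg probe set differed by 0.005 and the dimmer by 0.055.

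Within each array Rarb can be set against the other receptors as a change relative to the non-transgenic mean, which removes any shift common to the whole array. The log2 ratio of Rarb to Rarg was higher by 0.675, 0.795 and 0.815 in P467L replicates 1 to 3, against deviations of -0.035 and 0.035 in the non-transgenic arrays. The ratio of Rarb to Rara was higher by 0.44, 0.81 and 1.04 in the P467L arrays, against 0.00 and 0.00. These ratios restate the values above for a gene picked on this contrast, so they are a description and no further check.

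Rarres1 and Rarres2 were both named for their induction by a synthetic retinoid in human skin. Rarres1, which encodes a membrane protein of the latexin family, measured 7.95, 7.84 and 7.89 in P467L replicates 1 to 3, against 6.84 and 6.96 in the non-transgenic arrays. Every P467L array was at least 0.88 above both non-transgenic arrays. Means were 7.89 ± 0.06 over the P467L arrays and 6.90 ± 0.08 over the non-transgenic arrays (SD, n = 3 and 2), which differed by 0.99 (SE 0.06, 95% interval 0.83 to 1.16), or 1.99-fold, with limma's adjusted p at 0.123. This was the largest difference of the 13 probe sets and ranked 140 of 45037 by absolute size. Leaving out each array in turn gave 0.93 to 1.05.

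Rarres2 encodes chemerin, a secreted chemoattractant and adipokine that also acts on vascular tone, and its differences had the opposite sign. Its brightest probe set measured 11.80, 11.68 and 11.60 in P467L replicates 1 to 3, against 12.30 and 12.26 in the non-transgenic arrays, and the second bright one measured 11.51, 11.47 and 11.44 against 12.07 and 12.08. In both the highest P467L array lay below the lowest non-transgenic array, by 0.46 and 0.56. The difference was -0.59 (SE 0.07, 95% interval -0.78 to -0.39) in the brightest and -0.60 (SE 0.04, 95% interval -0.71 to -0.50) in the second, or 1.5-fold and 1.52-fold lower in P467L, with limma's adjusted p at 0.258 and 0.126. A further, dim probe set measured 6.49, 6.49 and 6.27 in P467L and 6.67 and 6.62 in non-transgenic arrays, again without overlap, with a difference of -0.23 (95% interval -0.46 to 0.01). The 2 bright probe sets carry a name ending that Affymetrix gives to sets whose probes can match several transcripts.

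The log2 ratio of Rarres1 to Rarres2 within each array, by the brightest probe sets, was higher by 1.53, 1.54 and 1.67 in P467L replicates 1 to 3, against -0.08 and 0.08 in the non-transgenic arrays. The 2 genes share a naming history and differed in opposite directions in these arrays. Their ratio restates the values above and adds no further check.

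Cyp26b1 encodes the main retinoic acid hydroxylase of several developing tissues and has been described in vascular smooth muscle, and the CYP26 genes are known to be induced by retinoic acid. It measured 7.44, 7.34 and 6.97 in P467L replicates 1 to 3, against 7.97 and 7.89 in the non-transgenic arrays. The groups did not overlap, and the P467L arrays spread over 0.47 with replicate 3 lowest. Means were 7.25 ± 0.25 over the P467L arrays and 7.93 ± 0.06 over the non-transgenic arrays (SD, n = 3 and 2), a P467L minus non-transgenic difference of -0.68 (SE 0.16, 95% interval -1.12 to -0.24), or 1.6-fold lower in P467L, with limma's adjusted p at 0.489. It was -0.54 without P467L replicate 3 and -0.775 without P467L replicate 1.

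Rarb and Cyp26b1, both known as genes that retinoic acid induces, were thus measured on opposite sides of the non-transgenic level. Their log2 ratio was higher by 1.37, 1.40 and 1.77 in the P467L arrays, against -0.04 and 0.04 in the non-transgenic arrays. Both genes were picked on this contrast, so the ratio adds no further check. With P467L replicate 1 and non-transgenic replicate 2 both left out, the differences were 0.81 for Rarb, 1.025 for Rarres1, -0.66 for the brightest Rarres2 probe set and -0.815 for Cyp26b1.

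**Figure D2:**
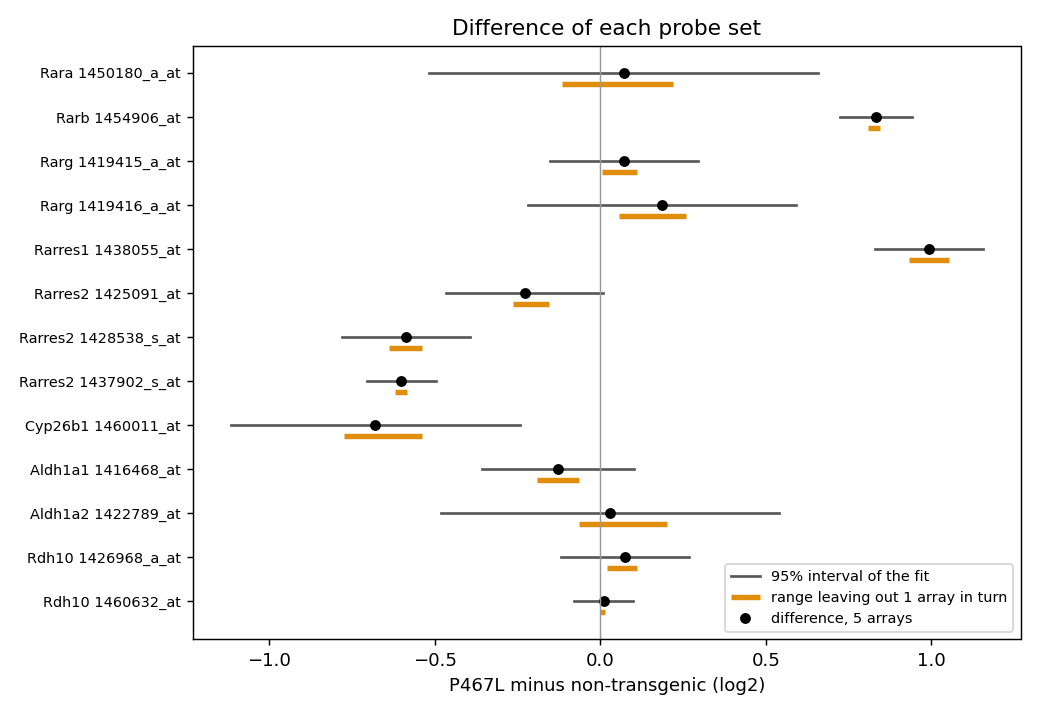
Difference of each of the 13 probe sets, as log2 P467L minus non-transgenic (points), with the 95% interval of the fit (grey) and the range of the difference when each array is left out in turn (orange). The intervals of Rarb, Rarres1, both bright Rarres2 probe sets and Cyp26b1 lie away from 0, before any adjustment for the number of probe sets, while those of Rara, Rarg, the dim Rarres2 probe set, Aldh1a1, Aldh1a2 and Rdh10 include 0. Rarb, Rara, Aldh1a1, Aldh1a2 and the dimmer Rdh10 probe set were equal in both non-transgenic arrays, so their intervals can be too narrow.

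The enzymes that make retinoic acid showed small differences. Rdh10, the retinol dehydrogenase needed for embryonic retinoic acid synthesis, measured 8.68, 8.65 and 8.83 in P467L replicates 1 to 3 and 8.68 and 8.61 in the non-transgenic arrays by its brighter probe set, a difference of 0.075 (95% interval -0.12 to 0.27) that was 0.02 without P467L replicate 3, and 0.04 when non-transgenic replicate 2 was left out. Its dimmer probe set measured 7.45, 7.42 and 7.42 in P467L and 7.42 in both non-transgenic arrays, a difference of 0.01 (95% interval -0.08 to 0.10). The interval of the brighter probe set leaves out a difference as large as that of Rarb. The dimmer probe set was equal in both non-transgenic arrays, so its spread can be understated and nothing is read from its interval.

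Aldh1a1, the retinal dehydrogenase also found in many adult tissues, measured 10.26, 10.01 and 10.13 in P467L replicates 1 to 3 and 10.26 in both non-transgenic arrays. One P467L array equalled the non-transgenic level and the other 2 lay below it, a difference of -0.13 (95% interval -0.36 to 0.10), or -0.19 without P467L replicate 1. Aldh1a2, the main retinal dehydrogenase of the embryo, measured 5.55, 5.02 and 5.51 in P467L and 5.33 in both non-transgenic arrays, all below the array medians of 6.17 to 6.25. Its difference of 0.03 (95% interval -0.48 to 0.54) was negative without P467L replicate 1 or without P467L replicate 3, and no direction is given for it.

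A wider list of 99 genes tied to retinoids was read from the brightest probe set of each, and 87 were measured. Many of them are not specific to retinoids, such as general coregulators, lipid uptake genes and chemerin receptors. None of the 87 passed limma's adjusted p of 0.05, and at an unadjusted p under 0.05 there were 8 higher, or 9.2%, where the share over all named genes was 6.94%, and 5 lower, or 5.75%, where it was 2.51%. The median difference was 0.03, against 0.02 over all 18194 named genes. Group ranges did not overlap in 14 genes with P467L higher, or 16.1%, where the share over all named genes was also 16.1%, and in 8 with P467L lower, or 9.2%, where the share was 6.55%.

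Of the partner and related receptors, 7 of 8 were measured, with a median difference of 0.04. Nr2f1, the orphan receptor COUP-TFI that can occupy the same repeats as RAR, measured 8.34, 8.30 and 8.38 in P467L and 8.05 and 7.99 in non-transgenic arrays, a difference of 0.32 (SE 0.04). Rxra, the RXR that pairs with both RAR and PPARγ, differed by 0.165 (SE 0.07) in its brightest probe set without overlap, while its other 2 gave -0.075 and -0.0033. Rorb, a related orphan receptor, differed by -0.14 (SE 0.08) with overlapping groups and levels below the array medians. Its other 2 probe sets ran from -0.075 to 0.0767, and the first gave -0.0333 without non-transgenic replicate 1.

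Among 14 measured genes of uptake, transport and storage the median difference was -0.07. Rbp4, the retinol carrier of blood plasma that adipocytes also secrete, measured 11.56, 11.44 and 11.36 in P467L and 11.73 and 11.75 in non-transgenic arrays, a difference of -0.29 (SE 0.07). Fabp5, a fatty acid binding protein that can also carry retinoic acid, measured 9.13, 9.08 and 8.89 in P467L and 9.29 and 9.75 in non-transgenic arrays, a difference of -0.49 (SE 0.17). Both lay lower in all 3 P467L arrays, but without non-transgenic replicate 2 Fabp5 differed by -0.26 and Rbp4 by -0.28. Lpl, the lipase that frees retinyl esters and fatty acids from lipoproteins, differed by -0.24 (SE 0.22) with overlap. Its other probe set gave 0.04, and the first gave 0.04 without non-transgenic replicate 1, so no direction is given for Lpl.

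The 22 measured enzymes of retinol and retinal oxidation, reduction and carotenoid cleavage had a median difference of -0.01 (-0.0075). Only Rdh7, a retinol dehydrogenase, had group ranges that did not overlap, at -0.29 (SE 0.07), with levels of 4.04 to 4.45 that lay below all array medians. That is 4.55% lower and 0% higher without overlap, where the shares over all named genes were 6.55% and 16.1%. Retsat, the retinol saturase, differed by -0.195 (SE 0.12) and Rdh12, a retinal reductase best known in photoreceptors, by 0.17 (SE 0.15), both with overlap. Rdh12 differed by 0.035 without P467L replicate 1.

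Of the other enzymes that can clear retinoic acid, 3 were measured and none separated the groups. Cyp26a1 measured 6.26 in all 3 P467L arrays and 6.12 and 6.26 in the non-transgenic arrays, a difference of 0.07 (SE 0.05). Cyp1b1 differed by -0.22 (SE 0.12). Cyp2s1 differed by -0.785 (SE 0.45), with 6.85, 6.99 and 6.74 in P467L and 6.94 and 8.35 in non-transgenic arrays, so the size of the difference rests on non-transgenic replicate 2, in which stomach markers were also highest, and was -0.08 without it.

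Of the 10 measured receptor coregulators, Ncoa3, a p160 coactivator, had the largest difference, 0.46 (SE 0.12), with 9.88, 9.65 and 9.56 in P467L and 9.33 and 9.14 in non-transgenic arrays, and its second probe set gave 0.36. Trim24, a coregulator that binds RARα, differed by -0.12 (SE 0.07) without overlap. Prame, whose human counterpart represses RAR signalling, differed by -0.18 (SE 0.09) with overlap and levels below the array medians.

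Of 29 measured genes described as responding to retinoic acid, 21 had a positive and 8 a negative difference, with a median of 0.095. That is 72.4% positive, where 56% of all named genes were positive with a median of 0.02. These counts rest on the brightest probe set of each gene. Meis1 was positive by its brightest, but its other probe sets gave -0.19 and -0.07. Other probe sets of Rai14 ran from -0.225 to 0.24. Meis2 was negative by its brightest, and its other probe sets ran from -0.65 to 0.03. Klf5, a zinc finger factor of activated smooth muscle, measured 8.33, 8.13 and 8.08 in P467L and 7.21 and 7.33 in non-transgenic arrays, a difference of 0.91 (SE 0.10). Its other 2 probe sets gave -0.06 and -0.005, so the probe sets of Klf5 disagree. Dusp6, a phosphatase of ERK, differed by 0.58 (SE 0.13) and Hoxa4, a homeobox factor, by -0.52 (SE 0.14), both without overlap, though the second probe set of Hoxa4 gave -0.17.

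Of the 3 chemerin receptor genes, 2 were higher and 1 was lower without overlap, states that 16.1% and 6.55% of all named genes share, and none passed limma's adjusted p. Ccrl2, which binds chemerin and presents it to other cells, measured 8.93, 8.78 and 8.56 in P467L and 8.22 and 8.05 in non-transgenic arrays, a difference of 0.62 (SE 0.13). Cmklr1, the signalling receptor, measured 9.13, 8.92 and 8.99 in P467L and 8.55 and 8.80 in non-transgenic arrays, a difference of 0.34 (SE 0.11), and its second probe set gave 0.21. Gpr1, the remaining receptor, was dim at 4.51 to 4.67 and differed by -0.10 (SE 0.05). The ligand gene Rarres2 was thus lower, and the genes of the 2 brighter receptors higher, in the P467L arrays; limma's adjusted p was 0.445 for Ccrl2 and 0.60 for Cmklr1. The macrophage markers, a cell type that carries both receptors, had a summed log2 signal of 13.6, 13.2 and 13.4 in P467L and 13.2 in both non-transgenic arrays, with 3 of 8 markers higher without overlap, and their part in the receptor values was not tested.

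**Figure D3:**
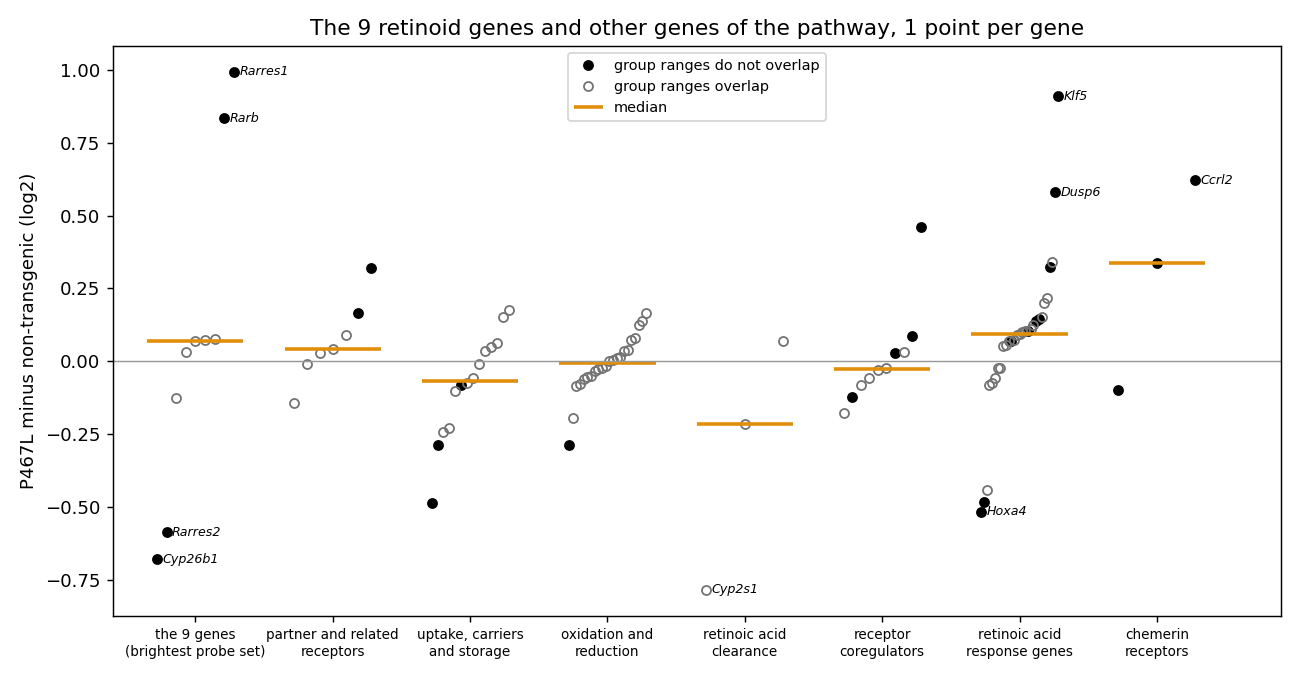
Difference of each gene's brightest probe set, as log2 P467L minus non-transgenic, for the 9 retinoid genes (left) and 7 groups of the wider list. Filled points are genes whose group ranges do not overlap, open points those that overlap, and orange bars are group medians. Most of the 87 other genes lie close to 0, and genes past 0.5 in either direction are named.

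The genes with the most similar pattern were found by Euclidean distance over the 5 arrays, after subtracting each probe set's mean, among named probe sets above the median level. Nearest to Rarb was Crispld1, a secreted cysteine-rich protein, at a distance of 0.11 log2 units, with P467L values of 8.58, 8.51 and 8.60 against 7.67 and 7.64. P3h2, a collagen prolyl hydroxylase, and Ppm1l, a protein phosphatase, came next at 0.11 and 0.12. Nearest to the brightest Rarres2 probe set were Sntb1, Hoxb5os and Fam174b at 0.13 to 0.15, while its own second bright probe set lay at 0.10 and its dim one at 0.41. Nearest to Cyp26b1 were the matrix glycoprotein gene Tnxb at 0.07, the matricellular gene Ccn1 at 0.08 and Specc1 at 0.12. Tnxb measured 11.03, 10.88 and 10.59 in P467L and 11.60 and 11.51 in non-transgenic arrays, with P467L replicate 3 lowest as for Cyp26b1.

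In pooled whole aorta, fewer cells of a type and less RNA per cell cannot be told apart, so marker lists were read beside these genes. Over all named genes, 16.1% were higher and 6.55% lower in P467L without overlap, and each list below is short. The fibroblast count of higher genes and both endothelial counts lie above these shares, and what lies behind them was not tested. Chemerin is made by adipocytes, which surround the aorta. The summed log2 signal of 8 measured adipocyte markers was 12.8, 12.1 and 12.4 in P467L replicates 1 to 3 and 13.3 and 12.4 in the non-transgenic arrays, and 0 of the 8 separated the groups. Their part in the Rarres2 values was not tested. Fibroblast markers had a summed signal of 15.3, 15.3 and 15.4 in P467L and 15.2 in both non-transgenic arrays, with 4 of 8 higher and 0 lower without overlap, and their part in the Rarb and Rarres1 values was not tested. Of 10 mesothelial markers, 5 were below the median of every array, and 1 was lower without overlap. Endothelial markers had 3 higher and 2 lower of 8, with sums of 12.7 to 12.8 in P467L and 12.7 in non-transgenic arrays. Cardiac muscle markers had sums of 10.2, 10.1 and 10.3 in P467L and 9.83 and 9.53 in non-transgenic arrays, with 1 of 7 higher without overlap. That marker was Tnnt2, the brightest of the list, at 9.35, 9.24 and 9.48 in P467L and 8.43 and 8.24 in non-transgenic arrays. The sums rest largely on it. Myh6 and Myl7 had positive and Actc1 a negative difference, all with overlap. Hepatocyte markers had sums of 8.96 to 9.01 in P467L and 9.15 and 9.29 in non-transgenic arrays, and 0 of the 6 measured separated the groups. The part of either in the retinoid values was not tested.

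**Figure D4:**
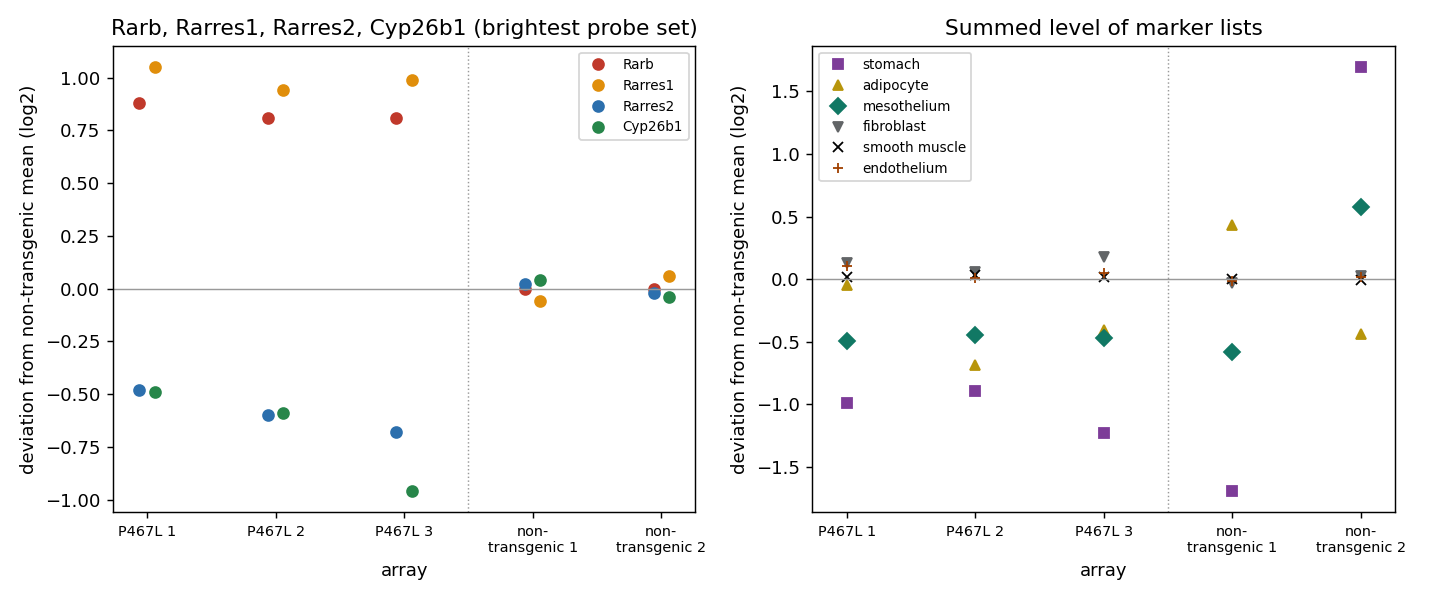
Left, the brightest probe sets of Rarb, Rarres1, Rarres2 and Cyp26b1 in each array; right, the summed signal of 6 marker lists in each array, both as the deviation from the mean of the 2 non-transgenic arrays (log2). The 4 genes separate the P467L arrays (left of the dotted line) from the non-transgenic arrays. On the right, the stomach and mesothelial sums are highest in non-transgenic replicate 2. The mesothelial sum there is raised by the keratins Krt8 (9.87, against 7.22 in non-transgenic replicate 1) and Krt19 (8.47 against 6.17). Msln (5.53) and Wt1 (4.98) are equal in both non-transgenic arrays.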

How the data were processed

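Thoracic aorta RNA was hybridised to 5 arrays, 3 P467L and 2 non-transgenic by the genotype label. The deposited values are log2 levels. The submitters' processing notes name RMA and Affymetrix Power Tools; RMA corrects background, quantile-normalizes and summarises each probe set, which would hide a difference common to most of the array. Tool versions, a genome build and scan batches are not given in the sources used here. The values ran from 3.03 to 14.99 with 2 decimals; precision is limited by the number of arrays.

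Probe sets were named from the platform annotation, with symbols updated through gene numbers; of 45037 tested, 34945 had 1 gene, 932 several and 9160 none listed, and 64 control probe sets were left out. Genotypes were set against each other by limma's moderated two-sided test (version 3.58.1, under R 4.3.3) with 4.23 total degrees of freedom, and p-values were adjusted over the whole array by the Benjamini-Hochberg method. The code was tested on simulated data. The 9 genes and all lists were chosen with earlier results of these data known. Named from the wider list were the 3 genes of each group with the largest absolute difference, and as similar patterns the 3 nearest genes to Rarb, Rarres2 and Cyp26b1. The alternatives tried were a block for replicate number, other scalings, filters, variance models and array weights, and leaving out arrays.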

Additional observations from a re-analysis of the deposited data

How the results depend on the processing

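Rarb, Rarres1, Cyp26b1 and all 3 Rarres2 probe sets kept their direction under each alternative run for them, with ranges of 0.81 to 0.87 for Rarb, 0.93 to 1.05 for Rarres1, -0.66 to -0.54 for the brightest Rarres2 probe set and -0.815 to -0.54 for Cyp26b1. Of the 13 probe sets 4 had a difference that turned negative or came to 0 under an alternative: Rara and the dimmer Rdh10 one without P467L replicate 1, also when non-transgenic replicate 2 was left out with it, the brighter Rarg one only with both of these left out (-0.03), and Aldh1a2 under 5 alternatives. The count of called probe sets, 0 with all 5 arrays, was 15 with each array centred on its median, 10 among probe sets of at least 7 in every array of 1 group, 10 with 1 probe set per gene and 17 at an adjusted p of 0.10. Rarb passed among the 10 called by 1 probe set per gene (limma's adjusted p 0.0484), and Rarres1 did not (0.0587). Array weights, added after the data were seen by limma's gene-by-gene method because its default did not converge, gave 283 calls, 4 of them Rarb, Rarres1 and both bright Rarres2 probe sets; P467L replicate 2 then had a weight of 4.61 and the other P467L arrays 0.238 and 0.438, so those calls rest mainly on 1 P467L array. Over all alternatives Rarb's adjusted p ran from 0.0112 to 0.746. The median of the wider retinoid list, 0.03 with all arrays, was 0.0667 with centring, 0.0533 among probe sets above the median level, 0.0542 among those of at least 7, 0.0004 with array weights, -0.015 with P467L replicate 1 and non-transgenic replicate 2 left out and -0.01 over all probe sets of the list; leaving out 1 array at a time gave 0.00 to 0.04. Probe sets without overlap between the groups numbered 8492, and 14083 with centring.

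The genes named from the wider list were also refitted with arrays left out, as an alternative chosen after the data were seen. Rdh12 turned to -0.015 with P467L replicate 1 and non-transgenic replicate 2 both left out. Without non-transgenic replicate 1, Lpl turned to 0.04 and Cyp26a1 came to 0.00. Sizes moved too with both arrays left out. Ncoa3 fell to 0.275, Ccrl2 to 0.45 and Rxra to 0.075, while others grew in size, such as Hoxa4 to -0.755 and Retsat to -0.37.

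The groups share replicate numbers 1 and 2, which the labels do not tie to a batch or litter; the deviations of same-numbered arrays correlated at 0.113 and 0.00814 over probe sets. With the replicate block, in which P467L replicate 3 has no partner and drops out of the contrast, 0 probe sets were called.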
